A study of Mus musculus with 51 samples.

Results

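Translation initiation factor genes were taken as every row of the 2 deposited tables of normalised expression whose mouse symbol begins with Eif and a digit from 1 to 6, leaving out the eIF2 kinases (Eif2ak) and pseudogenes. The rule found 46 of the 10560 genes in the table of untreated mice and 48 of the 13458 genes in the table of mice given immune checkpoint blockade (ICB). Eif4ebp1 and Eif4ebp3, which code for inhibitors of the cap-binding protein, were rows of the ICB table and not of the untreated one.

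The libraries were made from flow-sorted CD8+ T cells of AT3-OVA tumors, a mouse mammary carcinoma line carrying ovalbumin as a model antigen, by QuantSeq, a method that reads 1 site near the 3' end of each transcript. Tumor cells were split by CD103, an integrin subunit that binds E-cadherin on epithelium, and by CD69, which retains T cells in tissue. CD103+CD69+ cells are called DP here, CD103-CD69+ cells SP and CD103-CD69- cells DN. Untreated tumors were taken at weeks 1, 2, 4 and 6, and gave 13 DP libraries (3, 4, 3 and 3 by week), 11 SP libraries (3, 3, 2 and 3) and 10 DN libraries (2, 3, 3 and 2). Spleens, titled Cntrl Spleen, gave 9 libraries, 3 for each label Naive, CM and EM, and these carry the same AT3-OVA and tumor-infiltrating tags as the tumor samples. Tumors of mice under ICB on day 40 gave 3 DP, 3 SP and 2 DN libraries in a table of their own, which was never set against the untreated one. The mouse strain, sex and age and the antibodies used for ICB are not given in the sources used here, and no label tells whether the replicates came from separate animals.

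Initiation factors bring the small ribosomal subunit, the initiator tRNA and the mRNA together. eIF1, eIF1A and eIF5 select the start codon, eIF2 carries the initiator tRNA and is recharged by the exchange factor eIF2B, and eIF3 is the large scaffold on the small subunit. The eIF4 proteins bind the mRNA cap (eIF4E), unwind the leader (eIF4A with its cofactors eIF4B and eIF4H) and hold these parts together (eIF4G), while the 4E-binding proteins block eIF4E until the kinase complex mTORC1 phosphorylates them. eIF5B joins the large subunit, eIF6 keeps the subunits apart and eIF5A helps peptide bonds form. Naive T cells keep protein synthesis low and raise it steeply on activation.

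Promoters are shown for the genes whose levels carry the results: Eif5a2, which had the widest range between groups, Eif4a1, the main eIF4A helicase, and Eif4b and Eif2b5, which stood on opposite sides of the DN cells. Each is the 250 bases before the annotated start, 5′ to 3′ on the gene's own strand, from RefSeq on build GRCm38.p6. Capitals mark CACGTG, the E-box bound by MYC and related factors.
Eif5a2 at chr3:28781027-28781276, plus strand: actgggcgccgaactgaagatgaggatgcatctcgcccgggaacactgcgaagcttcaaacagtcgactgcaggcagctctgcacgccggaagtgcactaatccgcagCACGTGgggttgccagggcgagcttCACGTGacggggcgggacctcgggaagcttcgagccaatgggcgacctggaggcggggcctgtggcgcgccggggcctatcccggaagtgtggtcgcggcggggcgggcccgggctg
Eif4a1 at chr11:69672424-69672673, minus strand: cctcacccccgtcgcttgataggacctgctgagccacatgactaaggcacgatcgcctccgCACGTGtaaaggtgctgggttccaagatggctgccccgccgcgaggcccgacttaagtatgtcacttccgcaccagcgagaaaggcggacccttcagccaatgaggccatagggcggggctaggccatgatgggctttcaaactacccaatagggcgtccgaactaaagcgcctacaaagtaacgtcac
Eif4b at chr15:102073523-102073772, plus strand: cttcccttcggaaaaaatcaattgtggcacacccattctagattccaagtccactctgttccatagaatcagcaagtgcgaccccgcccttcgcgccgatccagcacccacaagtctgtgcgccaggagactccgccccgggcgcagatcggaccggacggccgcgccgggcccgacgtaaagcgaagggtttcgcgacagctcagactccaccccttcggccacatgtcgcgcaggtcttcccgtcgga
Eif2b5 at chr16:20498567-20498816, plus strand: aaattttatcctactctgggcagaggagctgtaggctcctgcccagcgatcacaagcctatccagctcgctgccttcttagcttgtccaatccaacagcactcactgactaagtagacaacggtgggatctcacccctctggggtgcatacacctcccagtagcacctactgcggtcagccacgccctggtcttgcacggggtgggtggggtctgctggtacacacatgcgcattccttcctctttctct
The Eif5a2 promoter held CACGTG 2 times, beginning 142 and 117 bases before the start, and that of Eif4a1 held it 1 time, beginning 189 bases before it. These letters were not found in the windows of Eif4b and Eif2b5. CACGTG reads the same on both strands, so each match counts once. Of the 48 members, 38 had a promoter in the RefSeq table, and 9 of the 38 (23.7%) held the letters in at least 1 promoter: Eif1b, Eif3f, Eif3k, Eif4a1, Eif4e, Eif4g1, Eif4h, Eif5a and Eif5a2. The share was 6.86% among all 27025 genes of the promoter table and 10.3% among the 7684 of them in the untreated table. A match describes the letters only.

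Levels in the deposited tables are not abundances. Gene means in the untreated table ran from -28.04 to 39.37, so values are compared within a gene and never between genes, and the presence of the CD8 markers could be read only as differences between groups. DN week 4 replicates 1 and 2 differed by a median of 0.0191 over all genes, where the next closest of 42 pairs within a group differed by 0.0882 and the median pair by 0.191. Whether they are 1 library could not be tested without counts, and counts of calls with both entered as their mean are given beside the DN results. The DP week 1 libraries stood apart, with the largest median SD over genes (0.289) of the 15 groups and a mean of the 8 CD8 T-cell markers 0.80 to 0.84 below the average of all groups. The mean of the 5 measured tumor epithelial markers was 2.23 to 3.46 above the average there, 1.95 to 2.46 above it in SP week 1 and 3.07 to 2.97 below it in spleen EM. Library codes fall into runs, with all spleen libraries in the first run, all DN libraries in later ones and nearly all DP and SP libraries in the first.

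Most initiation factor genes varied little. Over the 15 untreated groups, the range of group means was 2.02 for Eif5a2, 1.21 for Eif4a2 and 1.19 for Eif4e3, and these 3 were the members whose range lay above the median of all genes (percentiles 78.9, 53.6 and 52.7). At the other end, Eif4a3, an eIF4A-like helicase of the exon junction complex, had a range of 0.29 and lay at percentile 0.18 of all genes. Across 14 tested comparisons of the untreated table, 35 of the 46 members passed an adjusted p of 0.05 at least once, in limma's moderated test with Benjamini-Hochberg adjustment over all genes. These 76.1% stood beside 71.8% of all genes (7584 of 10560), a share near that background. The other 11 never did: Eif1ax, Eif2b3, Eif2b4, Eif2s1, Eif2s3x, Eif3l, Eif3m, Eif4a3, Eif4e, Eif4e2 and Eif4e3. They include the cap-binding protein eIF4E itself, whose group means lay between 4.15 and 4.75. They also include the alpha subunit of eIF2, Eif2s1, which the stress kinases phosphorylate and whose group means lay between 1.66 and 2.41. In bulk libraries such as these, fewer cells of a type and less RNA per cell cannot be told apart.

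**Figure D1:**
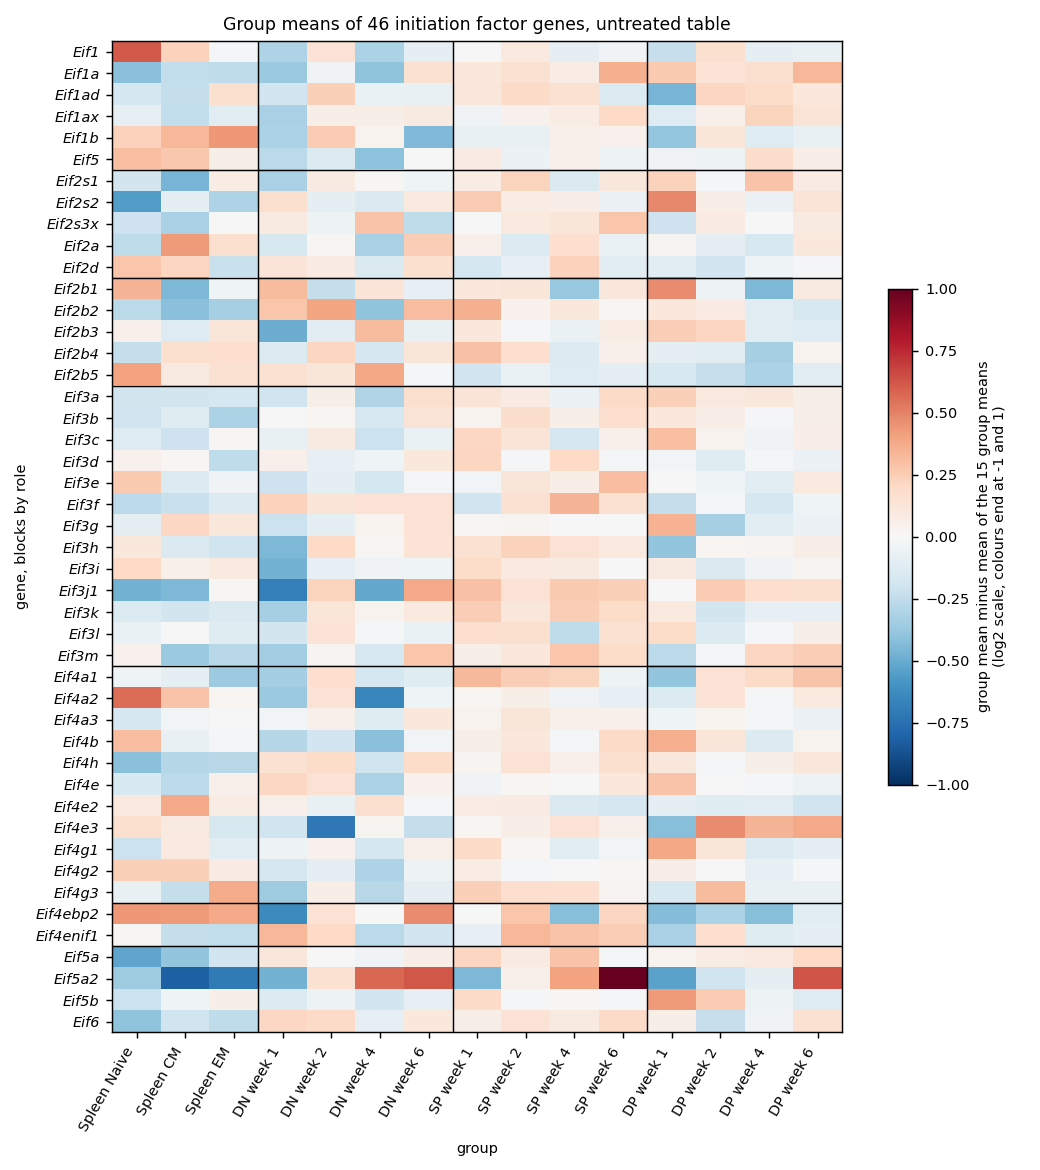
Each row is 1 of the 46 members of the untreated table, ordered by role, and each column 1 of 15 groups; colour gives the group mean minus the mean of the 15 group means, in log2 units, with colours ending at -1 and 1. Eif5a2 shows the widest span, from 7.29 in spleen CM to 9.31 in SP week 6, while most rows stay pale.

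The spleen comparisons asked how memory subsets differ from naive cells. Against naive cells, EM cells had lower Eif1, which enforces start codon choice, lower Eif4a2, the second eIF4A helicase, lower Eif2d, a factor that can deliver tRNA without eIF2, and lower Eif4b. Eif3j1, a loosely held eIF3 subunit, and Eif4g3, an eIF4G scaffold, were higher in EM. The 2 members higher and 4 lower (of 46) stood beside 12.6% and 12.0% of all genes. Both memory subsets were tested against the same 3 naive libraries.

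Eif1 was 6.94, 6.77 and 6.85 in the naive libraries, 6.40, 6.49 and 6.51 in CM and 6.18, 6.32 and 6.16 in EM. The naive values lay above those of every other untreated library, the highest of which was 6.61 in SP week 2. The EM difference was -0.64 (SE 0.11, adjusted p = 0.000135) and the CM difference -0.39 (SE 0.11, adjusted p = 0.0139). Of the 75-base stretches in the last 300 bases of the Eif1 transcripts, 19.9% also occur in other annotated genes, so its reads could be split with those copies.

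Eif4a2 was 7.11, 7.0 and 7.07 in naive cells and 6.49, 6.55 and 6.53 in EM, with no overlap (difference -0.54, SE 0.13, adjusted p = 0.00439). In CM it was 6.87, 6.79 and 6.71, between both. Of its 75-base end stretches 14.4% also occur in another annotated gene, Gm2999. Its 3' end overlaps Rfc4 on the other strand, and the strand setting of the authors' counting is not given in the sources used here. Eif4b fell in both memory subsets, from 7.36, 7.42 and 7.35 in naive cells to 7.05, 7.09 and 6.99 in EM (-0.33, SE 0.11, adjusted p = 0.0394) and 6.93, 6.99 and 7.05 in CM (-0.39, SE 0.11, adjusted p = 0.0220). The naive libraries were above every memory library for this gene. The other EM differences were 0.48 for Eif3j1 (SE 0.17, adjusted p = 0.0430), 0.45 for Eif4g3 (SE 0.15, adjusted p = 0.0390) and -0.50 for Eif2d (SE 0.16, adjusted p = 0.0235). The 3' end of Eif2d overlaps Rassf5 on the other strand.

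In CM cells, 3 members were higher and 4 lower than in naive cells, beside 10.1% and 8.70% of all genes. Eif2a, a tRNA carrier separate from eIF2, was 4.99, 5.07 and 4.88 in naive cells and 5.63, 5.67 and 5.69 in CM (0.68, SE 0.16, adjusted p = 0.00454), without overlap. Eif2s2, the beta subunit of eIF2, was 4.05, 4.11 and 4.07 in naive cells and 4.57, 4.53 and 4.52 in CM (0.46, SE 0.14, adjusted p = 0.0299). Of its 75-base end stretches 27.6% also occur in Gm9892, so its reads could be split with that gene. The 3' end of Eif2s2 also overlaps, on the other strand, the gene with the symbol a. The third, Eif4g1, the main eIF4G scaffold, differed by 0.31 (SE 0.11, adjusted p = 0.0467). Eif2b1, the alpha subunit of the exchange factor, was lower by a difference of -0.78 (SE 0.23, adjusted p = 0.0208), and Eif3e, an eIF3 subunit, by -0.39 (SE 0.14, adjusted p = 0.0481). Of the 15 proliferation genes listed beside the factors, 14 were higher in EM and 11 in CM than in naive cells; their part in these results was not tested.

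Among these spleen calls, Eif1 and Eif4a2 in EM and Eif2a in CM passed with each of the 6 libraries left out in turn. Each of the other calls was lost without some single libraries. For Eif1 in CM these were naive replicate 1 (adjusted p = 0.0712) and CM replicate 1 (0.0543). Eif2d in EM was lost without naive replicate 1 or 3 or EM replicate 1 or 3 (0.0663 to 0.148). Eif3j1, Eif4g3 and Eif4b in EM were lost without any library but EM replicate 2 (0.0524 to 0.192). In CM, Eif4b was lost without any but CM replicate 3 (0.0521 to 0.0717), Eif2s2 without any but naive replicate 2 (0.0640 to 0.0888) and Eif3e without any (0.0515 to 0.148). Eif4g1 and Eif2b1 were lost without naive replicate 1 or 3 or CM replicate 2 or 3 (0.0526 to 0.160). With quantile normalization the EM split was 1 higher and 4 lower, and with libraries shifted to 1 median 4 higher and 4 lower.

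**Figure D2:**
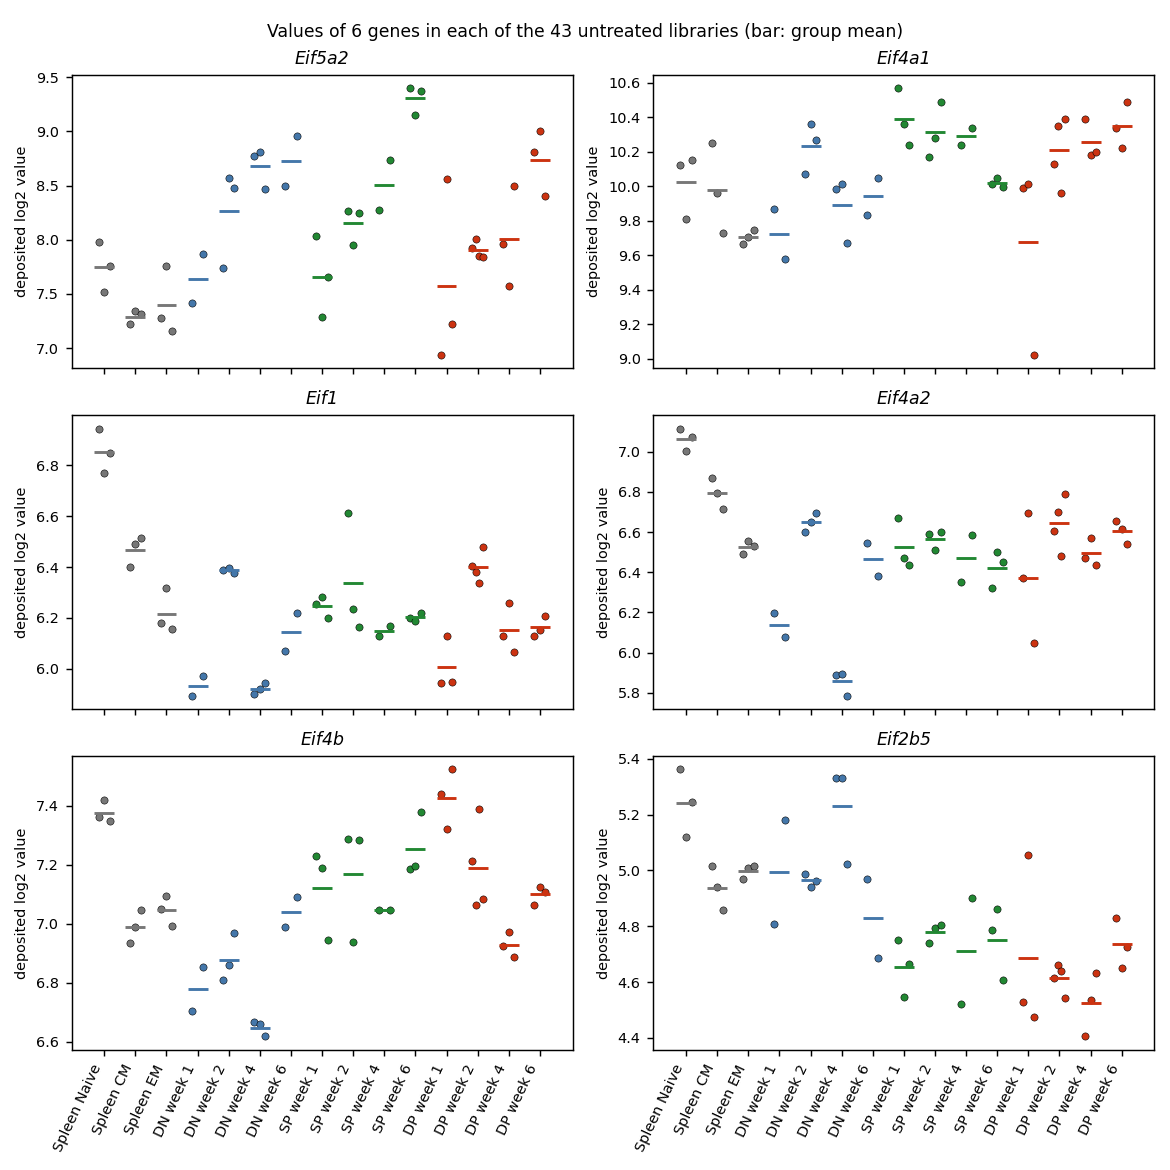
Deposited log2 values of 6 members (Eif5a2, Eif4a1, Eif1, Eif4a2, Eif4b and Eif2b5) are plotted for the 43 untreated libraries by group; points are libraries and bars group means. Naive spleen libraries are highest for Eif1, between 6.77 and 6.94, and Eif5a2 reaches 9.15 to 9.40 in SP week 6.

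Tumor cells were next set against spleen EM, a memory group of the spleen. No comparison of tumor cells with spleen CM was run. The 3 subset comparisons share the same 3 EM libraries, so their values are given side by side and not as repeats of each other. SP cells had 12 members higher and 1 lower, beside 15.9% and 13.5% of all genes. DP cells had 5 higher and 4 lower, beside 13.8% and 16.0%. DN cells had 5 higher and 3 lower, beside 10.2% and 10.5%. The median difference over the 46 members was 0.13 in SP, where that of all genes was 0.01, 0.07 in DP (all genes -0.03) and 0.004 in DN (all genes -0.02).

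Eif5a2, the second gene for the hypusine-carrying factor eIF5A, was 7.28, 7.75 and 7.16 in EM. In SP it ran from 7.28 through a median of 8.26 to 9.40 and in DN from 7.41 through 8.48 to 8.96, each overlapping EM only at the low end. The difference from EM was 1.01 in SP (SE 0.28, adjusted p = 0.00915), 0.93 in DN (SE 0.28, adjusted p = 0.0227) and 0.66 in DP (SE 0.27, adjusted p = 0.0724), where it ran from 6.94 through 7.97 to 9.0. The commoner gene, Eif5a, was higher in SP by 0.33 (SE 0.12, adjusted p = 0.0489), and 5.42% of its 75-base end stretches also occur in other genes.

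Eif3b, a core eIF3 subunit, was 4.64, 4.76 and 4.58 in EM. It ran from 4.86 to 5.23 in SP, from 4.81 to 5.20 in DP and from 4.74 to 5.21 in DN, above EM in every SP and DP library. The differences were 0.43 (SE 0.10, adjusted p = 0.00249), 0.37 (SE 0.10, adjusted p = 0.00572) and 0.31 (SE 0.10, adjusted p = 0.0286). The helicase cofactor Eif4h was also higher in all 3 subsets, by 0.38 in SP (adjusted p = 0.0141), 0.35 in DP (adjusted p = 0.0199) and 0.36 in DN (adjusted p = 0.0272), with SEs of 0.11. Eif2s2 was 4.35, 4.28 and 4.36 in EM, below all 13 DP libraries (4.57 to 5.23) and all 11 SP libraries (4.52 to 4.95). It differed by 0.46 in DP (SE 0.11, adjusted p = 0.00426) and 0.39 in SP (SE 0.12, adjusted p = 0.0150).

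Eif1b, a close relative of Eif1, was lower in all 3 tumor subsets. Its values were 5.39, 5.38 and 5.32 in EM and ran from 4.53 to 5.22 in DP, from 4.72 to 5.10 in SP and from 4.47 to 5.69 in DN, so that DP and SP did not overlap EM and DN did. The differences were -0.55 in DP (SE 0.14, adjusted p = 0.00522), -0.45 in SP (SE 0.14, adjusted p = 0.0217) and -0.55 in DN (SE 0.14, adjusted p = 0.0101). Eif4g3 was lower in DP by a difference of -0.37 (SE 0.12, adjusted p = 0.0279) and in DN by -0.54 (SE 0.13, adjusted p = 0.00507).

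Eif4ebp2, a 4E-binding inhibitor of the cap-binding protein, was 8.42, 8.49 and 8.39 in EM and 7.29 to 8.15 in DP, without overlap. The difference was -0.70 (SE 0.18, adjusted p = 0.00671). SP libraries ran from 7.32 to 8.62 and DN libraries from 7.32 to 8.58, both spanning the EM values. Eif4enif1, which carries eIF4E into the nucleus and into P-bodies, went the other way in SP: it was 8.15, 8.36 and 8.06 in EM and 8.26 to 9.0 in SP, a difference of 0.44 (SE 0.10, adjusted p = 0.00197). Its 3' end overlaps Drg1 on the other strand.

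The remaining named calls against EM were Eif1a (0.47, SE 0.16, adjusted p = 0.0303), Eif3a (0.30, SE 0.08, adjusted p = 0.00797) and Eif2b5 (-0.36, SE 0.12, adjusted p = 0.0288) in DP. In SP they were Eif4a1 (0.55, SE 0.17, adjusted p = 0.0220) and Eif2b2, the beta subunit of eIF2B (0.46, SE 0.12, adjusted p = 0.00748), and Eif3a, Eif3d, Eif3k and Eif6 were called higher by 0.26 to 0.37. In DN they were Eif2b2 (0.47, SE 0.12, adjusted p = 0.00974), Eif6 (0.36, SE 0.12, adjusted p = 0.0339) and Eif4g2, the eIF4G relative that does not bind eIF4E (-0.24, SE 0.07, adjusted p = 0.0168). All 5 measured tumor epithelial markers were higher than EM in each tumor subset, by a median of 3.77 in DP, 3.80 in SP and 3.05 in DN, and their part in these results was not tested.

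With a term for the library code run, 10 members were called in DP, 12 in SP and none in DN. Of all genes 28.2%, 28.3% and 1.78% were called with that term. In DN, Eif5a2 then differed by 1.2 (adjusted p = 0.185), Eif2b2 by 0.52 (adjusted p = 0.176), Eif4g3 by -0.50 (adjusted p = 0.215), Eif1b by -0.48 (adjusted p = 0.322) and Eif4g2 by -0.25 (adjusted p = 0.272). The other 3 differed by 0.28 (Eif6), 0.24 (Eif4h) and 0.21 (Eif3b), with adjusted p-values of 0.495 to 0.547. Leaving out EM replicate 3 left 3 calls in DP and 2 in SP, and leaving out EM replicate 1 left 1 in DN. Calls that passed without every library in turn were Eif2s2, Eif4ebp2 and Eif1b in DP and Eif4enif1 and Eif3b in SP. In DP, Eif3b and Eif3a were lost without EM replicate 3 (adjusted p = 0.0505 and 0.0570), Eif4h and Eif4g3 without EM replicate 1 or 3 (0.0764 to 0.198), and Eif1a and Eif2b5 without any EM library (0.0618 to 0.120). In SP, Eif2b2 was lost without EM replicate 3 (0.0576), Eif5a2 without EM replicate 1 or 3 (0.0533 and 0.0687), and Eif4a1, Eif2s2 and Eif1b without any EM library (0.0511 to 0.0888). In DN, Eif1b was lost without EM replicate 1 (0.0539), Eif4g3 without EM replicate 3 (0.0631), the other 6 without EM replicate 1 or 3 (0.0515 to 0.168), and Eif6 and Eif3b also without DN week 1 replicate 1 or DN week 6 replicate 2 (0.0508 to 0.0559). For DP the split was 10 higher and 4 lower with quantile normalization and 8 higher and 4 lower with libraries shifted to 1 median. With DN week 4 replicates 1 and 2 as their mean, 8 members were called in DN.

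**Figure D3:**
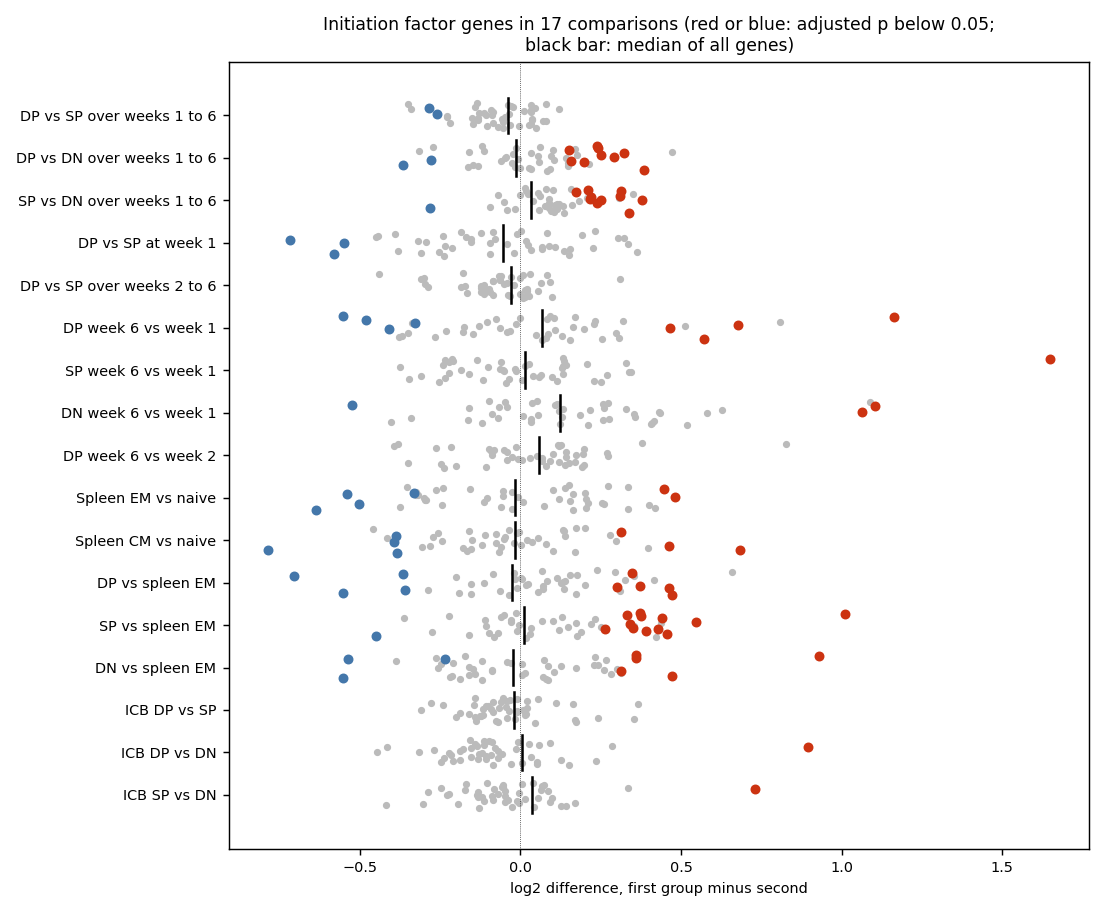
Log2 differences of the members are plotted for 17 comparisons, with Eif4ebp3 omitted; red points passed as higher, blue points as lower, grey points did not pass, and black bars mark the median of all genes. SP against spleen EM holds 12 red points and 1 blue, and DP against SP holds 2 blue and no red.

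Within the tumor, the 3 subsets were compared over all weeks with weeks weighted equally. Relative to DN, 9 members were higher and 2 lower in DP, beside 8.81% and 10.7% of all genes, and 10 were higher and 1 lower in SP, beside 11% and 8.32%. The 2 comparisons share the DN libraries. The median difference of the members was 0.06 for DP (all genes -0.01) and 0.10 for SP (all genes 0.03), and 40 of 46 members had a positive difference in SP, as did 5849 of the 10560 genes. By week, the member median of DP minus DN was 0.13, -0.03, 0.13 and 0.01 at weeks 1, 2, 4 and 6 (all genes 0.03, -0.04, -0.01 and -0.03). That of SP minus DN was 0.25, 0.05, 0.21 and 0.04 (all genes 0.09, -0.03, 0.08 and -0.02), so the larger differences from DN lay at weeks 1 and 4. DP and SP differed from each other in 2 members, both lower in DP, beside 2.72% of all genes called lower and 0.767% called higher.

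Eif4b, the cofactor that stimulates eIF4A, ran from 6.62 through a median of 6.83 to 7.09 in DN, from 6.89 through 7.11 to 7.52 in DP and from 6.94 through 7.19 to 7.38 in SP. DN had the lowest median, and its range overlapped those of DP and SP. The DN week 6 libraries (6.99 and 7.09) lay above all DP week 4 libraries (6.89 to 6.97). The differences from DN were 0.32 in DP (SE 0.06, adjusted p = 0.000653) and 0.31 in SP (SE 0.06, adjusted p = 0.00160). Eif2b5, the catalytic epsilon subunit of eIF2B, lay the other way, from 4.69 through 4.98 to 5.33 in DN, from 4.41 through 4.63 to 5.06 in DP and from 4.52 through 4.75 to 4.90 in SP. Its differences were -0.36 in DP (SE 0.08, adjusted p = 0.00289) and -0.28 in SP (SE 0.08, adjusted p = 0.0232).

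Eif1a, an eIF1A gene, ran from 3.11 through 3.74 to 4.12 in DN, where DP ran from 3.69 through 4.14 to 4.32 and SP from 3.77 through 4.10 to 4.34. It was higher by 0.39 in DP (SE 0.11, adjusted p = 0.0137) and by 0.34 in SP (SE 0.11, adjusted p = 0.0372). Eif3j1 was higher by 0.29 in DP (SE 0.09, adjusted p = 0.0248) and by 0.38 in SP (SE 0.09, adjusted p = 0.00692), and DN libraries covered the whole span of both, from 8.56 to 9.77. Its 3' end overlaps Spg11 on the other strand. The low DN values of Eif3j1 were those of weeks 1 and 4 (8.56 to 8.87), and those of weeks 2 and 6 lay between 9.42 and 9.77.

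By role, of the 11 eIF4 members, 3 were higher in DP and 4 in SP and none lower. Of the 13 eIF3 members, 3 were higher and 1 lower in DP and 4 higher in SP. Of the 6 scanning members, 2 were higher in each subset. Eif4a2 (0.25, SE 0.07, adjusted p = 0.0124), Eif5, the GTPase activator of eIF2 (0.24, SE 0.07, adjusted p = 0.0130), and Eif5b (0.24, SE 0.07, adjusted p = 0.0147) were higher in DP. Eif3f, an eIF3 subunit, was lower there (-0.28, SE 0.09, adjusted p = 0.0373). In SP, Eif4g3 (0.31, SE 0.08, adjusted p = 0.0130), Eif3i (0.25, SE 0.08, adjusted p = 0.0296) and Eif3e (0.24, SE 0.07, adjusted p = 0.0292) were higher.

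Library code run and the DN sort cannot be told apart in full. With the run as a term, no member was called in DP or SP against DN, and of all genes 0.928% and 0.587% were. Eif4b then differed by 0.32 in DP (adjusted p = 0.227) and 0.31 in SP (adjusted p = 0.336), Eif1a by 0.58 and 0.54 (adjusted p = 0.195 and 0.324), and Eif2b5 by -0.56 and -0.48 (adjusted p = 0.0804 and 0.199). These differences were close to those without the term for Eif4b and larger for Eif1a and Eif2b5, while that of Eif3i in SP went from 0.25 to 0.12 (adjusted p = 0.825). Within the second run, the 1 DP library of week 2 against 3 DN libraries had the same direction in 11 of the 11 DP calls. At week 6, 1 DP library against 2 DN libraries had it in 8 of 11, with Eif3a, Eif3j1 and Eif5b against. There 1 SP library had it in 7 of the 11 SP calls, with Eif3i, Eif3j1, Eif4a2 and Eif5 against. The calls came from a fit that held these same libraries, so agreement in direction was partly built in. The share of all genes was not counted. With DN week 4 replicates 1 and 2 as their mean, 10 members were called in DP and 9 in SP.

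Without week 1, the difference of Eif3j1 was 0.16 in DP (adjusted p = 0.227) and 0.18 in SP (adjusted p = 0.223), and it was not called. Nor were Eif5b (0.13, adjusted p = 0.126) and Eif3f (-0.21, adjusted p = 0.0928) in DP, or Eif1a (0.29, adjusted p = 0.0593), Eif4g3 (0.22, adjusted p = 0.0918) and Eif3i (0.12, adjusted p = 0.245) in SP.

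In DP against DN, Eif1a was lost without DN week 1 replicate 2 (adjusted p = 0.0606), Eif3j1 without DN week 6 replicate 2 (0.0676) and Eif3f without any of 10 of the 23 libraries (0.0510 to 0.120). In SP against DN, Eif1a was lost without any of 11 of the 21 libraries (0.0508 to 0.127). Eif3i was lost without DN week 1 replicate 1, DN week 6 replicate 1 or SP week 4 replicate 2 (0.0583 to 0.0679). Eif3e was lost without DN week 1 replicate 1, DN week 6 replicate 2 or SP week 4 replicate 2 (0.0510 to 0.0774), and Eif2b5 without DN week 1 replicate 2, DN week 6 replicate 1 or SP week 4 replicate 1 (0.0664 to 0.0699). The SP count fell to 5 without SP week 4 replicate 2. The DP split was 12 higher and 1 lower with quantile normalization and 10 higher and 1 lower with libraries shifted to 1 median. The 5 epithelial markers had a median difference of 0.72 in DP and 0.36 in SP against DN, with 2 of 5 called higher in each, and the 9 myeloid markers one of 0.42 and 0.22, with 4 and 1 called. Their part in the result was not tested.

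The 2 members called between DP and SP over all weeks were Eif4enif1 and Eif3k, a peripheral eIF3 subunit. Eif4enif1 ran from 7.94 through 8.33 to 8.68 in DP and from 8.26 through 8.66 to 9.0 in SP, so that the subsets overlapped. The difference was -0.28 (SE 0.06, adjusted p = 0.0114), it was negative at each of the 4 weeks (-0.24, -0.16, -0.41 and -0.33) and it passed with each of the 24 libraries left out in turn. Eif3k ran from 0.22 through 0.37 to 0.64 in DP and from 0.45 through 0.71 to 0.88 in SP, a difference of -0.26 (SE 0.07, adjusted p = 0.0365), lost without any of 14 of the 24 libraries (adjusted p = 0.0509 to 0.0773). Over weeks 2 to 6 alone no member passed, beside 0.104% of all genes called higher and 0.312% called lower. There 7 members had an unadjusted p below 0.05, and 3 were called with ordinary degrees of freedom. Shares of all genes by these measures are not given, so neither count sets the members apart from the whole table. The smallest p-values there were those of Eif4enif1 (-0.30, SE 0.07, adjusted p = 0.0565), Eif3k (-0.30, SE 0.08, adjusted p = 0.0898) and Eif3f (-0.29, SE 0.10, adjusted p = 0.185).

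At week 1, 3 members were lower in DP than in SP and none higher, beside 11.5% and 5.92% of all genes. Eif4a1 was 9.99, 10.01 and 9.02 in DP and 10.57, 10.36 and 10.24 in SP (-0.72, SE 0.22, adjusted p = 0.0264). All DP values lay below all SP values, and DP replicate 3 was the lowest. Eif1ad, which carries an eIF1A-like domain, was 7.72, 7.94 and 7.53 in DP and 8.29, 8.36 and 8.29 in SP (-0.58, SE 0.18, adjusted p = 0.0316). Eif3h, an eIF3 subunit, was 4.62, 4.51 and 3.75 in DP and 4.85, 4.93 and 4.75 in SP (-0.55, SE 0.17, adjusted p = 0.0275), again with DP replicate 3 lowest. Of its 75-base end stretches 5.75% also occur in another gene.

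Without DP week 1 replicate 3 the difference was -0.39 for Eif4a1 (adjusted p = 0.180), -0.48 for Eif1ad (adjusted p = 0.122) and -0.28 for Eif3h (adjusted p = 0.185). The calls were also lost without SP week 1 replicate 1 (0.0665 to 0.0973) or replicate 2 (0.0570 to 0.0856), and that of Eif1ad without SP replicate 3 (0.0672) or DP replicate 1 (0.0591). The split was 1 higher and 2 lower with quantile normalization and 2 and 2 with libraries shifted to 1 median. Of 15 proliferation genes 13 were lower in DP at week 1, and 7 of the 8 CD8 T-cell markers were too; their part in these results was not tested.

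The difference between DP and SP at week 1 was itself tested against that over weeks 2 to 6. For 2 members it was lower at week 1 and for 1 higher, beside 9.02% and 5.72% of all genes. Eif4a1 changed by -0.78 (SE 0.25, adjusted p = 0.0411): DP minus SP came to -0.72 at week 1, against -0.11, -0.03 and 0.33 at weeks 2, 4 and 6. Eif1ad changed by -0.68 (SE 0.21, adjusted p = 0.0347), with -0.58 at week 1 and 0.02, 0.03 and 0.24 later. Eif3g, an eIF3 subunit, went the other way by 0.51 (SE 0.17, adjusted p = 0.0475), with 0.33 at week 1 and -0.36, -0.10 and -0.06 later. Single libraries ended these calls in 11, 6 and 19 of 24 cases, with adjusted p-values up to 0.170 for Eif4a1 (-0.46) and 0.106 for Eif1ad (-0.58) without DP week 1 replicate 3 and 0.125 for Eif3g without SP week 1 replicate 3. The split of lower and higher was 1 and 2 with quantile normalization and 0 and 2 with libraries shifted to 1 median.

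**Figure D4:**
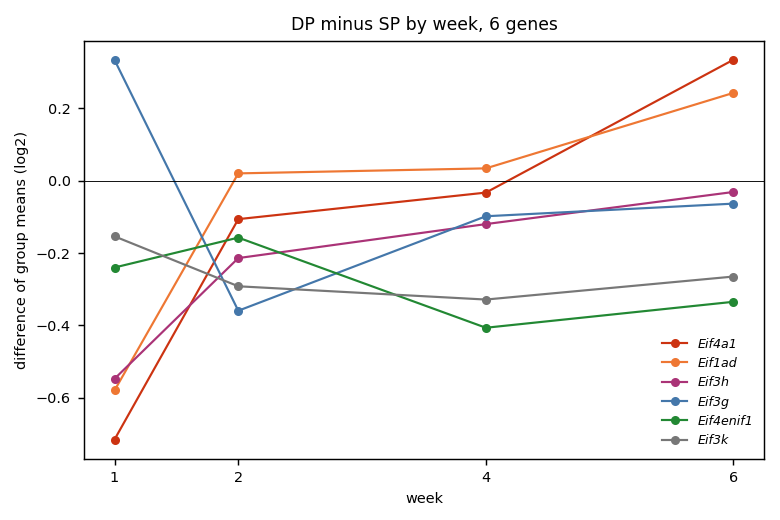
DP minus SP, in log2 units, is plotted by week for Eif4a1, Eif1ad, Eif3h, Eif3g, Eif4enif1 and Eif3k. Eif4a1 runs from -0.72 at week 1 to 0.33 at week 6, and Eif4enif1 stays below 0 at each week.

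Over time, Eif5a2 had the largest change among the members called. In SP it was 8.04, 7.28 and 7.65 at week 1, 8.26, 7.95 and 8.25 at week 2, 8.28 and 8.74 at week 4 and 9.40, 9.15 and 9.37 at week 6. The week 6 values lay above all earlier SP values, and the rise from week 1 was 1.65 (SE 0.35, adjusted p = 0.0134). In DP it was 6.94, 8.56 and 7.22 at week 1, with a wide spread, and 8.80, 9.0 and 8.40 at week 6, a rise of 1.16 (SE 0.35, adjusted p = 0.0174). DN libraries held 7.41 and 7.86 at week 1 and 8.49 and 8.96 at week 6, a difference of 1.09 (SE 0.42, adjusted p = 0.135).

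Eif5a2 was the 1 member called in SP between weeks 1 and 6, beside 1.34% of all genes higher and 1.37% lower. The SP call was lost without SP week 1 replicate 2 (adjusted p = 0.0674), SP week 6 replicate 1 (0.0569) or SP week 6 replicate 3 (0.0533). The DP call was lost without DP week 1 replicate 1 (0.0964) or 3 (0.0714) or DP week 6 replicate 1 (0.0506) or 2 (0.0703). Epithelial markers fell between these weeks, 3 of 5 in SP and 4 of 5 in DP, and their part in the result was not tested.

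In DP, 4 members rose and 4 fell from week 1 to week 6, beside 15.6% and 9.37% of all genes. Eif5b was 8.01, 7.95 and 8.29 at week 1 and 7.53, 7.57 and 7.50 at week 6, without overlap (-0.55, SE 0.13, adjusted p = 0.00314). Eif4g1 was 7.12, 7.03 and 7.32 at week 1 and 6.69, 6.59 and 6.76 at week 6, also without overlap (-0.48, SE 0.11, adjusted p = 0.00263). Both passed with each library left out in turn. The 3' end of Eif5b overlaps Rev1 on the other strand.

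Eif3g (-0.41, SE 0.15, adjusted p = 0.0442) and Eif4b (-0.33, SE 0.11, adjusted p = 0.0412) fell too, while Eif4a1 (0.68, SE 0.22, adjusted p = 0.0265), Eif1ad (0.57, SE 0.18, adjusted p = 0.0260) and Eif3h (0.46, SE 0.17, adjusted p = 0.0465) rose. With DP week 1 replicate 3 left out, the difference was 0.35 for Eif4a1 (adjusted p = 0.187) and 0.19 for Eif3h (adjusted p = 0.320). These 2 were also lost without DP week 6 replicate 1 or 3, and Eif3h without replicate 2 (0.0599 to 0.0985). Eif1ad was lost without DP week 1 replicate 1 or 3 or DP week 6 replicate 1 or 2 (0.0521 to 0.101), Eif3g without any but DP week 1 replicate 3 (0.0843 to 0.144) and Eif4b without any but DP week 1 replicate 2 (0.0756 to 0.124). With a term for the library code run 4 members were called, 2 in each direction, beside 21.4% of all genes. Eif4a1 (0.63), Eif3h (0.43), Eif3g (-0.42) and Eif4b (-0.33) were then not called (adjusted p = 0.0505 to 0.0847). The split was 2 higher and 8 lower with quantile normalization and 1 and 8 with libraries shifted to 1 median.

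Between weeks 2 and 6 no DP member passed, beside 0.199% of all genes higher and 0.0473% lower. There 7 members had an unadjusted p below 0.05, and 3 were called with ordinary degrees of freedom. Shares of all genes by these measures are not given, so neither count sets the members apart from the whole table. The smallest p-values were those of Eif5b (-0.38, SE 0.12, adjusted p = 0.155), Eif6 (0.38, SE 0.14, adjusted p = 0.223) and Eif4g3 (-0.39, SE 0.14, adjusted p = 0.241).

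In DN, 2 members rose and 1 fell from week 1 to week 6, beside 4.98% and 0.805% of all genes. The median of all genes was itself 0.12 higher at week 6, and that of the members 0.13. Eif3j1 was 8.56 and 8.62 at week 1, 9.43, 9.42 and 9.63 at week 2, 8.87, 8.86 and 8.56 at week 4 and 9.77 and 9.54 at week 6. Values were high at weeks 2 and 6 and low at weeks 1 and 4, and the difference between weeks 6 and 1 was 1.06 (SE 0.21, adjusted p = 0.00546). Eif4ebp2 was 7.32 and 7.51 at week 1, 7.97 to 8.51 at weeks 2 and 4, and 8.58 and 8.46 at week 6 (1.11, SE 0.29, adjusted p = 0.0281). Eif4enif1 was 8.68 and 8.87 at week 1 and 8.31 and 8.19 at week 6 (-0.52, SE 0.15, adjusted p = 0.0411).

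With only 2 DN libraries at each week, Eif3j1 was lost without DN week 1 replicate 1 (adjusted p = 0.0663) or DN week 6 replicate 1 (0.0629). Eif4ebp2 was lost without any but DN week 1 replicate 2 (0.105 to 0.214), and Eif4enif1 without any (0.107 to 0.212). The 2 weeks lie in different runs of library codes, and among the DN groups only week 4 held libraries of both runs. With the run as a term no member was called, beside 0% of all genes, so the lost calls say nothing about the members. The differences were then 1.04 for Eif4ebp2 (adjusted p = 0.706), 0.76 for Eif3j1 (adjusted p = 0.661) and -0.43 for Eif4enif1 (adjusted p = 0.793). Of the 5 epithelial markers 4 were higher at week 6, from a mean 1.06 to 1.56 below the average at week 1 to 1.65 to 1.81 above it, and their part in the result was not tested.

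In tumors of mice under ICB, Eif4e3 was the 1 member called, in DP and in SP against DN. This member of the eIF4E family was 9.75 and 9.71 in DN, 10.48, 10.36 and 10.54 in SP and 10.62, 10.63 and 10.63 in DP. The 3 subsets did not overlap, with DN lowest and DP highest. Nor did they overlap for several members that were not called, among them Eif3e, Eif3k, Eif4b, Eif4e2, Eif4ebp2, Eif4enif1 and Eif4g2. The share of all genes without overlap was not counted, so such a separation is not particular to Eif4e3. The difference from DN was 0.90 in DP (SE 0.09, adjusted p = 0.0137), beside 4.47% of all genes higher and 3.02% lower, and 0.73 in SP (SE 0.09, adjusted p = 0.0272), beside 2.47% and 1.36%. Both comparisons share the 2 DN libraries. Both passed with each library left out in turn, and neither without limma's trend option. The annotated 3' end of Eif4e3 overlaps Gm20696 on the same strand, while 0% of its 75-base end stretches occur in transcripts of other genes. Whether its reads were split with Gm20696 was not tested.

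In the untreated table Eif4e3 passed in none of the 14 comparisons. Its group means there ran from 4.48 in DN week 2 to 5.67 in DP week 2, and the 3 DN week 2 libraries spread from 3.71 to 5.14. In the ICB table, 8 of 11 myeloid markers were higher in DP than in DN, with a mean of all 11 at 0.72 to 0.99 in DP, -0.40 to 0.09 in SP and -1.02 to -1.01 in DN around the average. Their part in the result was not tested.

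DP and SP under ICB differed in no member, beside 0.00743% of all genes called higher and 0.0297% lower. There 2 members had an unadjusted p below 0.05, and 11 were called with ordinary degrees of freedom. Shares of all genes by these measures are not given, so neither count sets the members apart from the whole table. The smallest p was that of Eif4enif1, at 11.22, 11.22 and 11.25 in DP and 11.51, 11.62 and 11.40 in SP (-0.28, SE 0.08, adjusted p = 0.323). These groups did not overlap. Eif4e2, a cap-binding protein that represses translation, was 9.41, 9.45 and 9.53 in DP, 9.78, 9.60 and 9.73 in SP and 9.91 and 9.84 in DN, and its difference between DP and SP was -0.24 (SE 0.10, adjusted p = 0.404).

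The inhibitors could be followed further in this table. Eif4ebp1, a target of mTORC1, was 4.80, 4.77 and 4.61 in DP, 4.27, 4.30 and 4.51 in SP and 4.43 and 4.45 in DN (DP minus SP 0.37, SE 0.26, adjusted p = 0.570). Eif4ebp2 was 10.19 in each DP library, 10.08, 10.06 and 10.09 in SP and 10.33 and 10.32 in DN, and it passed in none of the 3 comparisons. Eif4ebp3 had the widest difference, -2.75 between DP and SP (SE 0.94, adjusted p = 0.351), at values from -11.12 to -7.32. All of the 75-base stretches at its transcript ends also occur in another gene, so its reads cannot be assigned to it. Eif5a2 was 8.74 to 9.20 over the 8 libraries, with all subsets overlapping.

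Genes that act on the factors were counted from lists of regulators. Of 11 measured genes of the eIF2 kinase and stress response list, 4 were higher in DP than in DN and none lower, beside 8.81% and 10.7% of all genes. They were Atf3 (1.54, SE 0.36, adjusted p = 0.00491), Sesn2 (0.44, SE 0.14, adjusted p = 0.0314), Atf4 (0.32, SE 0.08, adjusted p = 0.00682), the transcription factor whose mRNA is translated when eIF2 is phosphorylated, and the eIF2 kinase gene Eif2ak4 (0.32, SE 0.10, adjusted p = 0.0293). In SP against DN, 3 were higher, beside 11% of all genes. Eef2k, the kinase that halts the elongation factor eEF2, was higher by 0.76 in DP (SE 0.12, adjusted p = 0.000125) and by 0.69 in SP (SE 0.12, adjusted p = 0.000673). With the run as a term none of these was called: the DP differences were 1.89 for Atf3, 0.73 for Sesn2, 0.38 for Atf4, 0.27 for Eif2ak4 and 0.77 for Eef2k (adjusted p = 0.131 to 0.642).

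Of the 14 initiation partners, Pdcd4, which binds and blocks eIF4A, was lower than in spleen EM in all 3 tumor subsets, by differences of -0.52 in DP (adjusted p = 0.00168), -0.40 in SP (adjusted p = 0.0128) and -0.54 in DN (adjusted p = 0.00298). Mcts1, which works with Denr in recycling and reinitiation, was lower too, by -0.85, -0.68 and -0.92. Ddx3x, a helicase that assists eIF4A, was higher by 0.55 in DP and 0.57 in SP. Counts over the whole list were 2 higher and 3 lower in DP, 1 and 2 in SP and 0 and 3 in DN, beside 13.8% and 16.0%, 15.9% and 13.5%, and 10.2% and 10.5% of all genes. With the run as a term Pdcd4 (-0.50, adjusted p = 0.180) and Mcts1 (-1.08, adjusted p = 0.0831) were not called in DN. Under ICB, Pdcd4 was lower in DP than in DN by a difference of -0.63 (SE 0.07, adjusted p = 0.0162).

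Of 14 mTORC1 genes, 3 were higher and 3 lower in CM than in naive cells, beside 10.1% and 8.70% of all genes, and 2 higher and 1 lower in EM, beside 12.6% and 12.0%. Mtor itself was lower in both (-0.55 in CM, adjusted p = 0.00510, and -0.42 in EM, adjusted p = 0.0228), while Rptor, its partner in the complex, was higher (0.46, adjusted p = 0.0301, and 0.41, adjusted p = 0.0430). Between DP and SP over all weeks none of the 14 passed. Of 10 elongation and termination genes, 5 were higher in SP than in EM, beside 15.9% of all genes, and 3 were lower in EM than in naive cells, beside 12.0%. Myc was lower in each tumor subset than in EM (-0.64 in DP, -0.51 in SP and -0.56 in DN, the last not called with the run as a term, adjusted p = 0.384) and lower in DP than in DN under ICB (-1.03, SE 0.20, adjusted p = 0.0478).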

How the data were processed

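QuantSeq 3' libraries of 10 ng total RNA were read as 75-base single ends, per the labels' protocols. HISAT2, HTSeq and mm10 are named, without versions, in the submitters' processing notes. The authors deposited normalised values per gene, read here as log2 because they include negative numbers. The normalisation method and the strand setting of the counting are not given in the sources used here. The log base is an inference, and depth is unknown, so no counting interval is given.

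Each table had fewer independent directions than its libraries allow: after centring, the rank was 32 of a possible 42 (untreated) and 4 of a possible 7 (ICB). That of the residuals was 18 for 28 degrees of freedom, and 2 for 5. Residual degrees of freedom were multiplied by this last ratio (0.6429 and 0.4) and residual variances divided by it. limma 3.58.1 in R 4.3.3 (trend and robust options, statmod 1.5.0) fitted group means to all genes of a table, without a filter on low values, and all groups shared 1 spread. P-values are two-sided, adjusted by Benjamini-Hochberg over all genes, and calls were made under an adjusted p of 0.05. They measure only the spread between these samples, which may be technical. Pooled comparisons weighted weeks equally. The test was also run on simulated data, with errors drawn independently and 1 comparison for each deposited table. That simulation did not copy the near-identical DN week 4 libraries, so it does not show how the test behaves with them.

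The members and lists were chosen with earlier results of these data known. The text names up to 6 called members per direction and comparison, by size of difference, or the 3 with the smallest p where none was called, and follows the factors by role. Members named beyond this were chosen after their values were seen. Library codes were read from the sample descriptions. Alternatives were ordinary degrees of freedom, quantile normalization, libraries shifted to 1 median, no trend, keeping the 7920 of 10560 genes with the highest means, a replicate block, a term for the library code run, only the compared groups in the fit, no week 1 and each library left out. Entering DN week 4 replicates 1 and 2 as their mean was added after the data were seen. Gene ends were compared with GENCODE vM21 on GRCm38, over the last 500 bases of each gene for overlaps and the last 300 bases of each transcript for shared 75-base stretches. Promoters came from RefSeq tables on GRCm38.p6. No columns of per-sample values were left unused.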

Additional observations from a re-analysis of the deposited data

Results flagged for a closer look

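For 3 members the difference between DP and SP at week 1 differed from that over weeks 2 to 6, by a test of that change itself in limma with adjustment over all genes. The change was -0.68 for Eif1ad (adjusted p = 0.0347), -0.78 for Eif4a1 (adjusted p = 0.0411) and 0.51 for Eif3g (adjusted p = 0.0475). Of all genes, 9.02% changed downward and 5.72% upward in the same test. At week 1 the DP values of Eif4a1 were 9.99, 10.01 and 9.02, and without the third of these libraries its adjusted p was 0.170.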

How the results depend on the processing

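No named member reversed direction under any alternative run, and these refits used mostly the same libraries. Within the second run of library codes at week 6, Eif3j1 and Eif5b in DP went against their calls relative to DN. Eif3i and Eif3j1 did so in SP. Counts of called members that moved by more than 1.5 times are given here. Apart from the run term, the share of all genes called under each alternative is not given. These counts, and the splits given above for other normalizations, therefore do not separate the members from the whole table. With ordinary degrees of freedom the counts were 7 for DP against SP, 17 for DP against DN, 17 for SP against DN, 10 for DP against SP at week 1, 3 for weeks 2 to 6, 7 for the change between them, 15, 3 and 8 for week 6 against week 1 in DP, SP and DN, 3 for DP week 6 against week 2, 14 and 11 for EM and CM against naive, 17 and 18 for DP and DN against EM, and 11, 15 and 11 for DP against SP, DP against DN and SP against DN under ICB. Leaving out the genes with the lowest means kept 23 of the 46 members, so fewer could pass. The counts were then 1 for DP against SP, 5 for DP against DN, 5 for SP against DN, 4 for CM against naive, and 4, 7 and 5 for DP, SP and DN against EM. Each of the 54 named results whose gene stayed in, ICB included, kept its status, and 0 became weaker. With a term for the library code run the count was 0 for DP and SP against DN, DN week 6 against week 1 and DN against EM, and 4 for DP week 6 against week 1. Of all genes 0.928%, 0.587%, 0%, 1.78% and 21.4% were called there, in the same order. With only the compared groups in the fit, which leaves fewer samples for the spread, it was 1 for DP against SP, 4 and 6 for DP and SP against DN, 0 for DP against SP at week 1, 1 for the change, 0 and 1 for week 6 against week 1 in DP and DN, 2 and 3 for EM and CM against naive and 1 for DN against EM. DP against SP had 1 call with quantile normalization, with libraries shifted to 1 median and without week 1, SP against DN had 5 without week 1, and DP against EM had 14 with quantile normalization. Under ICB both counts against DN were 0 without the trend option. Where no other value is given, the cause was not tested. Leaving out each library gave 1 to 2 calls for DP against SP, 8 to 14 for DP against DN, 5 to 11 for SP against DN, 0 to 4 at week 1, 0 to 1 over weeks 2 to 6, 0 to 4 for the change, 2 to 9, 0 to 1 and 0 to 2 for week 6 against week 1 in DP, SP and DN, 0 to 0 for DP week 6 against week 2, 2 to 8 for EM and 1 to 6 for CM against naive, 3 to 11, 2 to 15 and 1 to 11 for DP, SP and DN against EM, and 0 to 0, 1 to 3 and 1 to 2 under ICB. Of 74 named calls, 21 passed without every library in turn. Replicate numbers were not taken to pair samples, since the residual correlation did not exceed 0.1 in every same-numbered pair: it did in 7 of 36 (-0.54 to 0.86). Between DP and SP it was above 0 in 11 of 11 pairs and above 0.1 in 5. Library codes ran side by side for some differently numbered libraries, as in spleen CM and naive, and those pairs were not checked. The replicate block was a term for the replicate number over all groups, so pairing by animal or week was not tested. With a replicate block DP against SP had 1 call, Eif3k having an adjusted p of 0.0527, and Eif3j1 in EM against naive was not called (0.0504). Depth is unknown, so low values could not be told from unmeasured ones.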
